A study of Mus musculus with 15 samples.

Results

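The genes described here are 32 genes of the endoplasmic reticulum (ER) unfolded protein response, given as a list of symbols and matched by name to the Ensembl identifiers of the expression tables. All 32 matched, and 31 of them passed the filter on low counts that kept 16001 of 37620 identifiers. Derl3, which codes for a derlin of secretory cells, did not pass, with 41 counts over all 15 libraries. The list holds 10 chaperones and co-chaperones, 7 lectin chaperones and disulfide isomerases, 8 genes of ER-associated degradation, 4 sensors and transcription factors, and 3 genes of the translocon. It was chosen by function and not by measured values, although earlier results of these data were known.

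The libraries were total RNA libraries, depleted of ribosomal RNA, of lung metastases of B16-F10.1 cells, a mouse melanoma line. The cells had been given through the tail vein to male C57BL/6J mice 8 weeks of age. After 21 days the mice received 1 of 4 diets for 2 weeks: methionine adequate (3 libraries), methionine supplemented at 300% (6 libraries), methionine restricted at 25% (3 libraries), or methionine deficient at 0% (3 libraries). All groups carried the same tumour line. Nothing in the labels ties a library to its own mouse, and the spread behind each p-value may therefore be partly technical.

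The ER folds and modifies proteins that are secreted or inserted into membranes. When unfolded proteins accumulate, Ire1 (gene Ern1), Atf6 and Perk at the ER membrane signal to the nucleus: Ire1 splices the Xbp1 transcript, Atf6 is cut to release a transcription factor, and Perk slows translation. Xbp1 and Atf6 then raise transcription of chaperones, disulfide isomerases and degradation factors, many of them through a promoter motif called the ER stress response element. Methionine is the first residue of nearly every new protein, and these diets change its supply.

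The motif is shown here because some of these genes carry it, and its part in their levels was not measured. It was searched as CCAAT and CCACG with 9 bases of any kind between them, on both strands, in the RefSeq promoters of build GRCm38.p6, which run from 250 bases before to 50 bases after each start. Of the 32 genes, 26 had an entry. Hyou1, Sil1, Manf, Derl1, Atf6 and Sec61a1 had none. The motif was found for 9 of the 26 genes (Hspa5, Hsp90b1, Dnajc3, Creld2, Calr, Canx, Pdia6, Syvn1 and Derl3). By promoter entry it was in 9 of the 27 entries of the list and in 0.119% of all 32851 promoters. A second form, ATTGG and CCACG with 1 base between them, was found for Herpud1 and Dnajb11 and in 0.0365% of all promoters, and the core TGACGTGG of the unfolded protein response element was found for 0 of 26 genes and in 0.676% of all promoters. No gene of the list held more than 1 of these forms. The 7 examples with the fixed letters of the motif in capitals, all written 5′ to 3′ on the gene's own strand, are the chaperone Hspa5 (chr2:34772010-34772058, plus strand), the lectin chaperone Calr (chr8:84847060-84847108, minus strand), the disulfide isomerase Pdia6 (chr12:17266476-17266524, plus strand), the secreted factor Creld2 (chr15:88819505-88819553, plus strand), the ubiquitin ligase Syvn1 (chr19:6046517-6046565, plus strand), the barely detected Derl3 (chr10:75893227-75893275, plus strand) and, for the second form, Herpud1 (chr8:94386362-94386402, plus strand). In Calr, Creld2 and Derl3 the motif lies on the opposite strand and is therefore read as CGTGG followed by ATTGG.
Hspa5: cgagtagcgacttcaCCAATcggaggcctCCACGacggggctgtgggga
Calr: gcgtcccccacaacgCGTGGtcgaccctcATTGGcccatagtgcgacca
Pdia6: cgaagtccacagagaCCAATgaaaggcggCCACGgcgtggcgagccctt
Creld2: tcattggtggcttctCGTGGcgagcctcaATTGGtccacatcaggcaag
Syvn1: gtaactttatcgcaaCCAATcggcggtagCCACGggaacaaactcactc
Derl3: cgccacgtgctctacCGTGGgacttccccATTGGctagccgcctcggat
Herpud1: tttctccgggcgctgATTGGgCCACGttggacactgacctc
The first motif base lay 65 bases before the start in Hspa5, 162 in Calr, 98 in Pdia6, 126 in Creld2, 44 in Syvn1, 156 in Derl3 and 52 in Herpud1. A match describes the letters of these windows only.

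Library totals ranged from 13107700 to 29994300 expected counts. Pigment cell markers (Tyr, Pmel and 6 others) summed to 14180 to 27950 CPM in every library. CPM are read counts scaled by library size and composition to a common total. Adequate replicate 1 stood apart in its RNA: small structural RNAs took 44.5% of its counts and 14% to 29% of the counts elsewhere, and its scaling factor was 0.69. Counted among these RNAs were 2 identifiers without a gene symbol, taken because each held more than 1% of counts in every library. Deficient replicate 3 carried the most host lung RNA, with 6128 CPM summed over 8 alveolar type 2 markers against 45.99 to 1695 CPM in the supplemented libraries, and supplemented replicate 5 carried 1411 CPM of skeletal muscle markers. In bulk tissue, fewer cells of a type and less RNA per cell cannot be told apart.

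By level per transcript length (the deposited TPM), folding enzymes were at the top, and 2 of the 3 stress sensors in the list were near the bottom. P4hb, a disulfide isomerase and subunit of prolyl hydroxylase, had the highest median at 186.5 TPM, followed by Hspa5 (BiP, the main Hsp70 chaperone of the ER) at 165.1 TPM and Calr (calreticulin) at 153.4 TPM. P4hb exceeded Hspa5 in 13 of 15 libraries and Hspa5 exceeded Calr in 12 of 15. In the middle of the order neighbours changed places between libraries: Pdia3 (median 35.72 TPM) exceeded Xbp1 (34.83 TPM) in 7 of 15 libraries only. Atf6 at 4.52 TPM and Ern1 at 4.47 TPM were among the lowest, above the co-chaperone Dnajb9 at 2.6 TPM and the disulfide isomerase Pdia5 at 1.55 TPM. Derl3 was last at 0.01 TPM. Its 41 counts included 21 in deficient replicate 3, the library with the highest plasma cell marker level, 6 in deficient replicate 2 and 5 in restricted replicate 3. The part of host cells in its counts was not tested.

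No member of the list passed an adjusted p of 0.05 in any of the 6 comparisons of diets, in the test for any difference among the 4 diets, or in the trend over methionine rank (edgeR's quasi-likelihood test, Benjamini-Hochberg over 16001 genes). The share of all genes called was 0.00625% for deficient against adequate, 0.00625% for any difference, and 0% for each of the other comparisons and the trend. Before adjustment, 1 of 31 members had a p under 0.05 for deficient against adequate (15.1% of all genes), 2 for restricted against adequate (9.17%) and 4 for supplemented against adequate (9.77%). The counts were 1 for deficient against restricted (7.44%), 0 for deficient against supplemented (5.45%) and 0 for restricted against supplemented (2.18%), 2 for any difference (9.47%) and 1 for the trend (3.47%). Members of the list therefore passed the unadjusted threshold no more often than all genes for 7 of these 8 tests, and for supplemented against adequate at 4 of 31. The heatmap of member levels shows the spread of libraries within each diet.

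**Figure D1:**
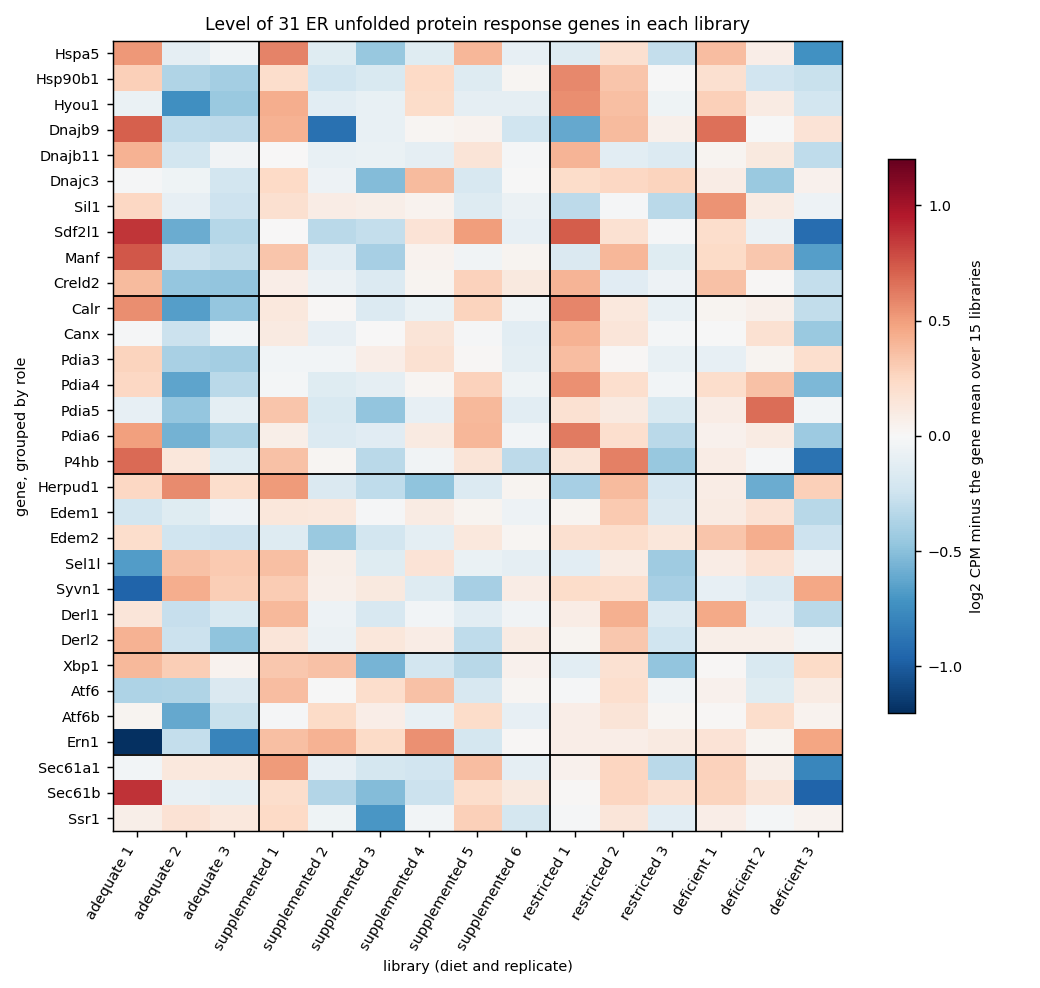
Rows are 31 genes grouped by role (black lines) and columns are the 15 libraries grouped by diet; colour is log2 CPM minus the gene's mean over 15 libraries. Adequate replicate 1 is red for most chaperones and isomerases and blue for Syvn1, Sel1l and Ern1, and deficient replicate 3 is blue for Hspa5, Sdf2l1, P4hb and Sec61b.

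The sensors and transcription factors held the member with the smallest p. Ern1 (ENSMUSG00000020715), the sensor Ire1α, had 18.14, 34.7 and 24.37 CPM in adequate replicates 1, 2 and 3. It had 47.42, 43.19 and 58.42 CPM in the deficient libraries and 44.56, 44.59 and 45.62 CPM in the restricted libraries. The 6 supplemented libraries ran from 36.45 to 61.65 CPM with a median of 51.81. Every library of the other 3 diets was thus above every adequate library, and the other 3 diets overlapped one another.

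The log2 fold change of Ern1 was 0.95 (SE 0.233, adjusted p = 0.149) for deficient against adequate. It was 0.80 (SE 0.233, adjusted p = 0.355) for restricted against adequate. It was 0.96 (SE 0.209, adjusted p = 0.246) for supplemented against adequate. These 3 comparisons share the 3 adequate libraries. The test for any difference gave an adjusted p of 0.373. Ern1 was therefore not called, whereas DESeq2 called it for deficient against adequate (adjusted p = 0.0118, with 3.67% of all genes called), for supplemented against adequate (adjusted p = 0.00609, 0.856% called) and for any difference (adjusted p = 0.02296, 1.69% called). Without adequate replicate 1 the edgeR estimates were 0.74, 0.58 and 0.75 in the same order, and that library was the lowest of the 15 for Ern1.

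Atf6, the sensor cut in the Golgi, had 54.68, 55.21 and 62.52 CPM in the adequate libraries. The deficient libraries had 73.16, 63.71 and 75.85 CPM and the restricted libraries 70.16, 81.06 and 68.62 CPM, all above the adequate ones. The supplemented libraries ran from 61.86 to 91.54 CPM (median 76.69) and overlapped the adequate ones by 1 library. The log2 fold changes against adequate were 0.30 (SE 0.167) for deficient, 0.35 (SE 0.167) for restricted and 0.44 (SE 0.147) for supplemented, with adjusted p-values of 0.4, 0.556 and 0.376. None passed.

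Atf6b, a relative of Atf6 that is cut in the same way, had 54.05, 34.55 and 43.83 CPM in the adequate libraries and 53.39, 61.35 and 54.57 CPM in the deficient ones. The groups overlapped through adequate replicate 1, and the difference was 0.35 (SE 0.169, adjusted p = 0.335), or 0.20 without adequate replicate 2. Restricted libraries had 56, 58.82 and 53.7 CPM and supplemented ones 49.41 to 61.89 CPM (median 54.09), overlapping the adequate ones as well. Their differences from adequate were 0.35 (SE 0.169, adjusted p = 0.564) for restricted and 0.32 (SE 0.148, adjusted p = 0.506) for supplemented. Xbp1, whose spliced transcript codes for the active factor, went the other way in value. It had 159.8, 149.2 and 125.5 CPM in the adequate libraries, 111.3, 137.9 and 87.85 CPM in the restricted libraries, and 122.7, 107.3 and 142.6 CPM in the deficient libraries. The groups overlapped, and the log2 fold changes against adequate were -0.37 (SE 0.241) for restricted, -0.22 (SE 0.241) for deficient and -0.28 (SE 0.206) for supplemented. The tables count genes, so spliced and unspliced Xbp1 transcripts were not separated.

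**Figure D2:**
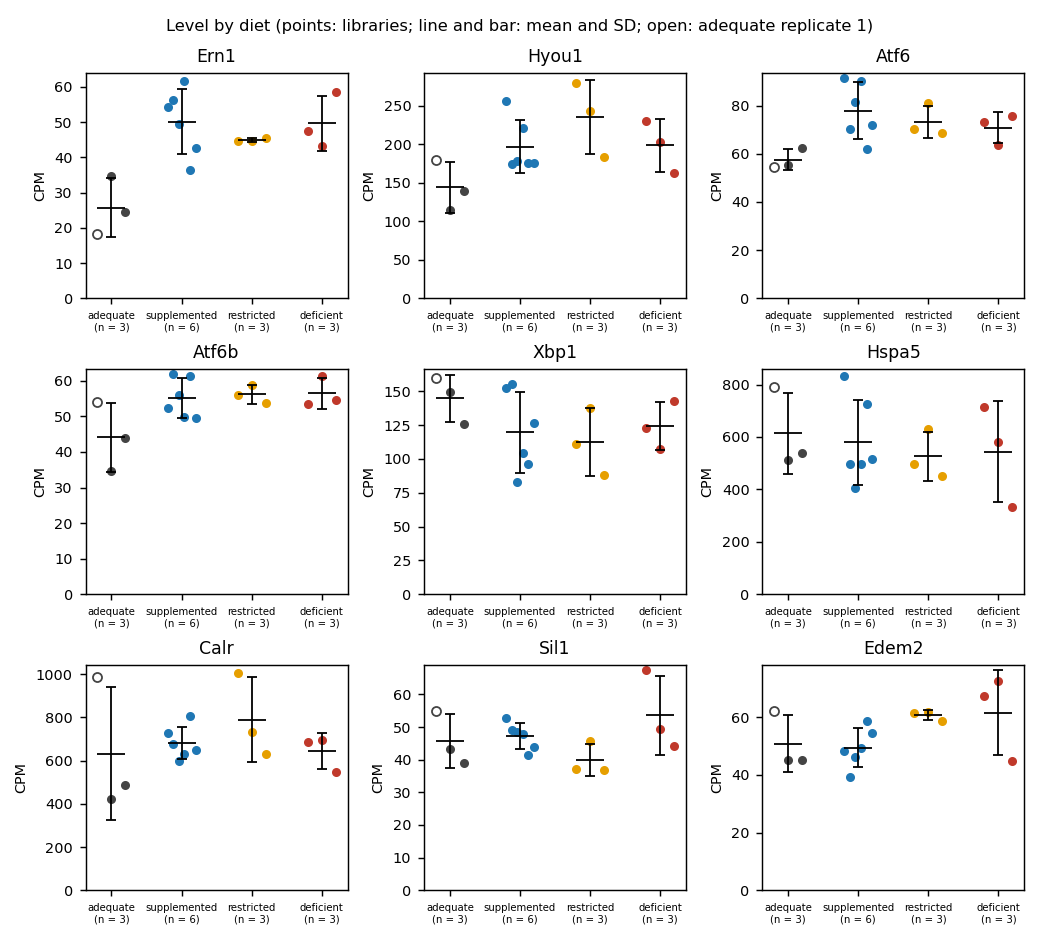
CPM of 9 genes by diet, with a point for each library, the mean and SD as a line and bar, and adequate replicate 1 as an open circle. All adequate points of Ern1 lie below all points of the other diets, while those of Xbp1, Hspa5, Calr and Sil1 overlap them.

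Among the 10 chaperones and co-chaperones, Hyou1 stood out in value and Hspa5 did not. Hyou1 (ENSMUSG00000032115), the large Hsp70-related chaperone that exchanges nucleotide on BiP, had 179.9, 114.1 and 139.5 CPM in the adequate libraries and 279.5, 243.2 and 183.5 CPM in the restricted ones. It had 230.7, 203.1 and 162.6 CPM in the deficient libraries, and 174.2 to 256.5 CPM (median 177.4) in the supplemented ones. The restricted libraries lay above all adequate ones, and the other diets overlapped them through adequate replicate 1. The log2 fold changes against adequate were 0.70 (SE 0.224, adjusted p = 0.39) for restricted, 0.46 (SE 0.224, adjusted p = 0.343) for deficient and 0.45 (SE 0.197, adjusted p = 0.5) for supplemented. Without deficient replicate 1 the deficient value was 0.30.

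Hspa5 (ENSMUSG00000026864), commonly read as the marker of ER stress, had 791.4, 511 and 539.7 CPM in the adequate libraries. The restricted libraries had 497.2, 630.9 and 451.8 CPM and the deficient libraries 713.6, 582.6 and 333.5 CPM. The supplemented libraries ran from 403.6 to 833.4 CPM (median 507.1). All 4 diets overlapped. The log2 difference from adequate was -0.18 (95% interval -0.849 to 0.496) for deficient, -0.22 (-0.894 to 0.451) for restricted and -0.08 (-0.665 to 0.496) for supplemented. These intervals leave room for changes of either sign, and the level of Hspa5 was not shown to be alike across diets.

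Hsp90b1 (Grp94, the Hsp90 of the ER) had 594.5, 503.7 and 397 CPM in the restricted libraries and 485.2, 309.6 and 301.2 CPM in the adequate ones, overlapping through adequate replicate 1. Its difference was 0.45 (SE 0.229, adjusted p = 0.589). The deficient libraries, at 454.8, 339.5 and 331.3 CPM, differed from the restricted ones by -0.41 (SE 0.229, adjusted p = 0.726), or -0.26 without restricted replicate 1. Dnajc3 (p58IPK, a BiP co-chaperone) had 152.1, 155.2 and 156.5 CPM in the restricted libraries, above all adequate libraries (128.7, 126 and 111.9 CPM) and all deficient libraries (138.9, 95.81 and 135.1 CPM). The second of these differences was -0.33 (SE 0.209, adjusted p = 0.779) for deficient against restricted, and -0.18 without deficient replicate 2. The restricted libraries agreed closely for Dnajc3, with an SD of 2.248 CPM, and the deficient ones did not, with an SD of 23.85 CPM.

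Sil1, a second nucleotide exchange factor of BiP, had the smallest p for deficient against restricted. The deficient libraries had 67.37, 49.41 and 44.3 CPM and the restricted libraries 37.21, 45.7 and 36.99 CPM, 0.43 apart on the log2 scale (SE 0.185, adjusted p = 0.657). The groups overlapped, and deficient replicate 1 was the highest of all 15 libraries. Without it the difference was 0.23. Dnajb9 (ERdj4), a co-chaperone that holds Ire1 inactive, had 15.08, 9.531 and 10.67 CPM in the deficient libraries and 5.116 to 12.74 CPM (median 9.324) in the supplemented ones. Its log2 fold change was 0.38 (SE 0.315, adjusted p = 0.916), and 0.14 without deficient replicate 1.

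Sdf2l1, Manf, Creld2 and Dnajb11 ranged widely between libraries of 1 diet. Sdf2l1, a partner of BiP complexes, was lowest in deficient replicate 3, at 15.74 CPM, and highest in adequate replicate 1, at 53.93 CPM. Manf, a secreted factor that binds BiP, ran from 48.56 to 129.4 CPM with the same lowest and highest libraries. Creld2 ran from 27.01 to 49.76 CPM and Dnajb11 from 46.26 to 76.04 CPM. Their log2 differences from adequate lay between -0.30 and 0.22 over the 3 diets.

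The 7 lectin chaperones and disulfide isomerases had a median log2 difference from adequate of 0.03 for deficient, 0.29 for restricted and 0.12 for supplemented, beside medians of all genes of 0.04, 0.005 and 0.03. Calr (ENSMUSG00000003814), which holds glycoproteins during folding, had 987.2, 424.6 and 485.9 CPM in the adequate libraries. It had 1008, 732.6 and 630.8 CPM in the restricted libraries, 686.5, 697.8 and 547 CPM in the deficient libraries, and 599.2 to 806.4 CPM (median 663.7) in the supplemented ones. Adequate replicates 2 and 3 lay below every other library, and adequate replicate 1 was the second highest. The 3 differences from adequate were 0.03 (SE 0.276) for deficient, 0.32 (SE 0.276) for restricted and 0.11 (SE 0.24) for supplemented.

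Pdia6, an isomerase that also binds Ire1, was arranged in much the same way, with 251.2, 120.4 and 137.3 CPM in the adequate libraries, 274.5, 205.7 and 142.7 CPM in the restricted ones and 184.7, 190.9 and 132 CPM in the deficient ones, where replicate 3 lay below adequate replicate 3. Pdia4 had 375.7, 203.6 and 252.8 CPM in the adequate libraries and 461.3, 363.1 and 309.7 CPM in the restricted ones, a difference of 0.45 (SE 0.254, adjusted p = 0.644). Adequate replicate 1 overlapped the restricted libraries in both genes. Pdia5 was the exception, with 5.544, 4.313 and 5.457 CPM in the adequate libraries all below 6.321, 9.431 and 5.808 CPM in the deficient ones. Its difference was 0.49 (SE 0.308, adjusted p = 0.459).

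P4hb was lower in value on each test diet with all libraries. Without adequate replicate 1 its difference was 0.14 for restricted and stayed below 0 for deficient and supplemented. It had 1720, 1186 and 964.9 CPM in the adequate libraries and 1141, 1069 and 580.8 CPM in the deficient ones, overlapping, with a log2 difference of -0.47 (SE 0.312, adjusted p = 0.484). Canx (calnexin, the membrane-bound relative of calreticulin) was lowest in deficient replicate 3, at 313.7 CPM, and highest in restricted replicate 1, at 571.8 CPM, and Pdia3, the isomerase that works with both lectins, ran from 106.5 to 182.8 CPM. Their differences from adequate lay between 0.03 and 0.29.

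**Figure D3:**
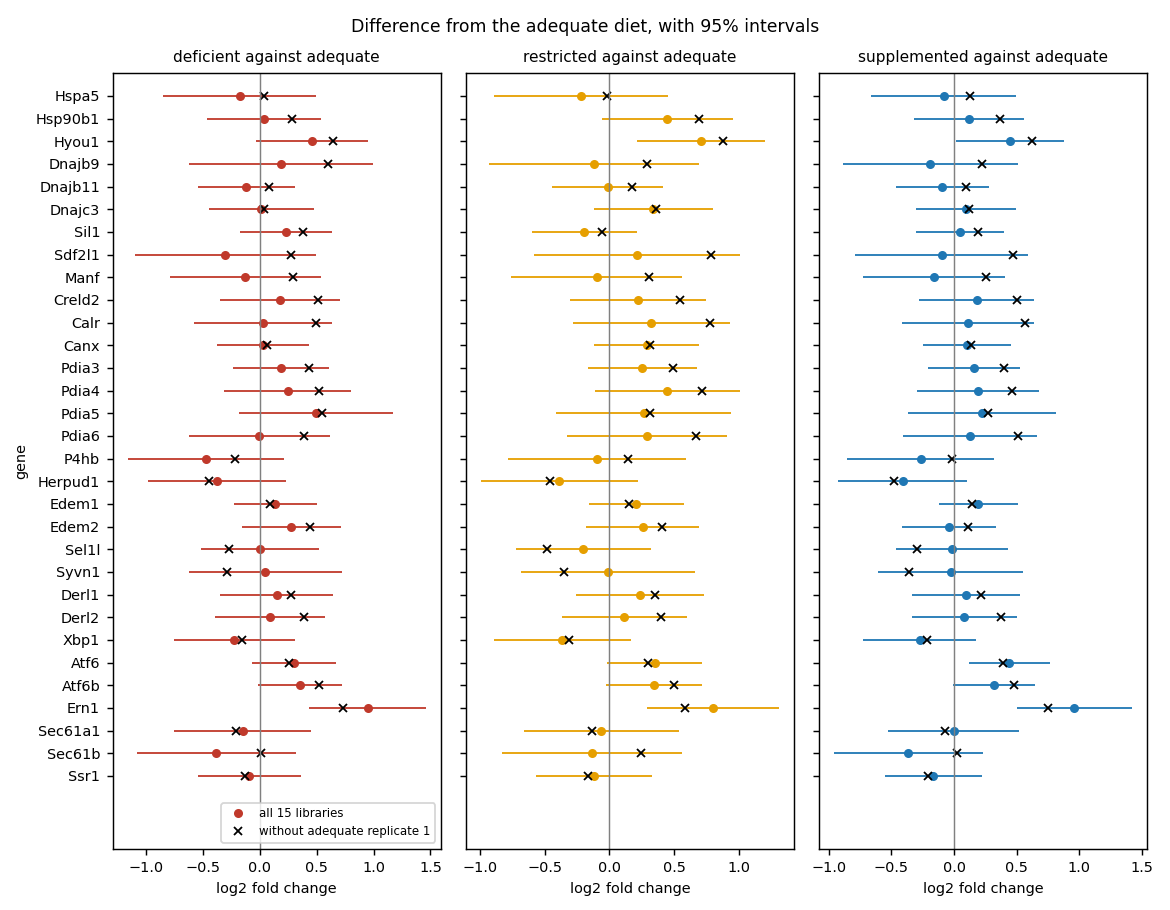
Log2 fold change of 31 genes against the adequate diet in 3 panels, with 95% intervals (bars) from the fit of all 15 libraries; crosses are the estimates without adequate replicate 1. The interval of Ern1 lies above 0 in all 3 panels, and the crosses of Calr, Pdia6, Sdf2l1 and Creld2 lie to the right of their points.

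In ER-associated degradation, 7 of 8 genes were tested. Edem2, a mannosidase-like protein that marks glycoproteins for degradation, had the smallest p for the trend over methionine rank. It had 67.34, 72.49 and 44.98 CPM in the deficient libraries, 61.31, 61.99 and 58.82 CPM in the restricted ones, 62.18, 45.28 and 45.15 CPM in the adequate ones and 39.31 to 58.7 CPM (median 48.87) in the supplemented ones. The log2 slope was -0.12 per rank (SE 0.0519, adjusted p = 1). All restricted libraries lay above all supplemented libraries, by a narrow margin, with a difference of 0.30 (SE 0.17, adjusted p = 1), and the deficient libraries overlapped them through replicate 3. Deficient against supplemented differed by 0.32 (SE 0.17, adjusted p = 0.87), by 0.19 without deficient replicate 2 and by 0.50 without deficient replicate 3.

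Syvn1 (Hrd1, the ubiquitin ligase) and Sel1l (its membrane partner) behaved unlike the chaperones in adequate replicate 1. Syvn1 had 16.76, 44.03 and 40.06 CPM in the adequate libraries, 37.98, 37.48 and 24.66 CPM in the restricted ones and 30.37, 29.15 and 45.12 CPM in the deficient ones. Sel1l had 94.81, 192.3 and 187.7 CPM in the adequate libraries, 138.5, 162 and 112.6 CPM in the restricted ones and 160.7, 170.5 and 143.7 CPM in the deficient ones. For both genes adequate replicate 1 was the lowest of all 15 libraries and the diets overlapped.

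Herpud1, a membrane protein that recruits the ligase complex, had 131.8, 164.2 and 128.8 CPM in the adequate libraries and 79.43 to 158.6 CPM (median 98.71) in the supplemented ones. The difference was -0.41 (SE 0.235, adjusted p = 0.59), and the groups overlapped through supplemented replicate 1. Edem1, Derl1 and Derl2 differed from adequate by 0.08 to 0.23 on the log2 scale over the 3 diets. Edem1 is a mannosidase-like protein related to Edem2, and Derl1 and Derl2 are derlins of the channel through which substrates leave the ER.

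The 3 translocon genes code for parts of the channel through which new proteins enter the ER and for its partner complex. Sec61a1 had 647.3, 724.2 and 725.9 CPM in the adequate libraries, 687.4, 793.4 and 529 CPM in the restricted ones and 804, 698.9 and 386.2 CPM in the deficient ones. Sec61b had 161.8, 83.19 and 81.57 CPM in the adequate libraries and 106.4, 98.62 and 45.59 CPM in the deficient ones. In both genes deficient replicate 3 was the lowest of all 15 libraries. Ssr1 ran from 79.57 CPM in supplemented replicate 3 to 157.4 CPM in supplemented replicate 5, so its whole range lay within 1 diet. The 3 genes were below 0 in each comparison with adequate, from -0.38 to -0.004 on the log2 scale, and none passed the test. Without adequate replicate 1 Sec61b was above 0 in each, at 0.01 for deficient, 0.25 for restricted and 0.02 for supplemented. Sec61a1 and Ssr1 stayed below 0 in that fit.

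Over the whole list, 19 of 31 members were above 0 for deficient against adequate (52.9% of all genes), with a median of 0.04. The count was 18 for restricted against adequate (50.4%), with a median of 0.21, and 17 for supplemented against adequate (52.9%), with a median of 0.08. Against the supplemented diet, 24 of 31 were above 0 for restricted (48.3%), with a median of 0.06, and 16 for deficient (52.5%), with a median of 0.008. For deficient against restricted 12 were above 0 (51.9%), with a median of -0.05. The direction of each of these medians, other than that for restricted against adequate, turned when 1 library was left out. Without restricted replicate 2, 14 of 31 were above 0 for restricted against supplemented, with a median of -0.02, and the median for restricted against adequate was 0.05. Without adequate replicate 3 the median for supplemented against adequate was -0.0002. Without deficient replicate 1 the medians of deficient were -0.07 against adequate and -0.08 against supplemented, and without restricted replicate 2 the median of deficient against restricted was 0.03. Groups did not overlap for 3 members higher in deficient than adequate (Pdia5, Atf6 and Ern1, beside 7.91% of all genes), 4 higher in restricted than adequate (Hyou1, Dnajc3, Atf6 and Ern1, beside 8.54%) and 1 higher in supplemented than adequate (Ern1, beside 2.17%). One member, Dnajc3, was lower in deficient than restricted without overlap (6.47%), and 1, Edem2, was higher in restricted than supplemented (1.32%).

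Adequate replicate 1 weighed on each comparison with the adequate diet. It was the highest library of its diet for 23 of 31 members, for all 10 chaperones and all 7 lectin chaperones and isomerases, and the lowest for 7. Without it the median of the members against adequate was 0.27 for deficient, 0.31 for restricted and 0.22 for supplemented, and 24, 23 and 24 of 31 were above 0. The medians of all genes in that fit were 0.05, -0.004 and 0.03. Leaving out the highest library of a diet in itself raises the difference from that diet. Still no member passed an adjusted p of 0.05: the smallest were 0.243, 0.227 and 0.364, with 0.024%, 0.03% and 0% of all genes called. Before adjustment, 7 of 31 had a p under 0.05 for deficient (12.9% of all genes), all of them higher (7.62%): Hyou1, Creld2, Calr, Pdia3, Edem2, Atf6b and Ern1. For restricted there were 11 (9.22%), of which 10 higher (5.11%), with Hsp90b1, Hyou1, Sdf2l1, Creld2, Calr, Pdia3, Pdia4, Pdia6, Atf6b and Ern1 higher and Sel1l lower. For supplemented there were 8 (8% of all genes), all of them higher (4.45%): Hyou1, Creld2, Calr, Pdia3, Pdia6, Atf6, Atf6b and Ern1. These comparisons share the remaining 2 adequate libraries, replicates 2 and 3. In that fit Calr was higher by 0.78 (SE 0.214, adjusted p = 0.235) in restricted and Hyou1 by 0.88 (SE 0.234, adjusted p = 0.227). Without supplemented replicate 5 and deficient replicate 3 as well, the unadjusted counts were 13 for deficient (12.7% of all genes), 13 for restricted (15.5%) and 10 for supplemented (14.9%), and again no member was called (0.0306%, 0.404% and 0.0122% of all genes).

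The deviation of adequate replicate 1 from the other adequate libraries varied with transcript length. Sec61b, with an effective length of 432 bases, was higher there by 0.97 on the log2 scale, Manf (707 bases) by 1.03 and Sdf2l1 (978 bases) by 1.33. Ern1 (5100 bases) was lower, at -0.68, as was Sel1l (4608 bases), at -1. Syvn1, of 2928 bases, was the lowest at -1.32, and Hyou1, of 4235 bases, was higher by 0.51. Spearman's rho between length and deviation was -0.647 across 31 members and -0.415 across 16001 genes, where genes are not independent replicates and all share the same 3 libraries. Libraries of other diets, each set against the rest of its own diet, also varied with length. Across members rho was -0.477 in supplemented replicate 6, -0.436 in supplemented replicate 5 and 0.389 in supplemented replicate 4. Across all genes the values were -0.0206, -0.172 and 0.176. The part of length or of the structural RNA share in the diet differences was not tested.

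**Figure D4:**
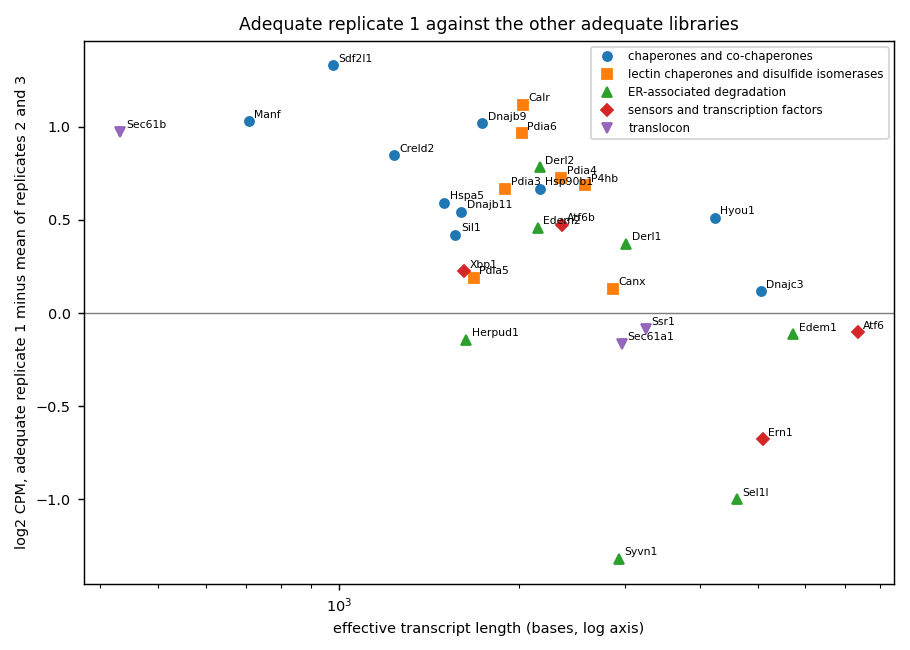
Each point is a gene, placed by its effective transcript length (bases, log axis) and by its log2 CPM in adequate replicate 1 minus the mean of adequate replicates 2 and 3; shapes and colours mark roles. Short genes such as Sec61b, Manf and Sdf2l1 lie near or above 1, and Ern1, Sel1l and Syvn1 lie lowest.

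Deficient replicate 3 was the lowest library of its diet for 21 of 31 members, among them 8 of 10 chaperones and 6 of 7 lectin chaperones and isomerases, and the lowest of all 15 libraries for 10 members. Its log2 distance from the other deficient libraries was -1.17 for Sec61b, -0.98 for Sdf2l1, -0.96 for Sec61a1, -0.95 for Hspa5 and -0.93 for P4hb. It was above them for Syvn1 by 0.60, Herpud1 by 0.54 and Ern1 by 0.37. The part of its lung RNA in these values was not tested. Restricted replicate 3 was the lowest of its diet for 24 of 31 members. At the other end, adequate replicate 1 and restricted replicate 1 were each the highest of all 15 libraries for 8 members. Summed over the 31 members, the level was lowest in deficient replicate 3 (4724 CPM) and highest in adequate replicate 1 (7862 CPM), with adequate replicates 2 and 3 at 5711 and 5667 CPM.

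Members varied together across libraries more often than members did with all genes. Over the 465 pairs the median Pearson r of log2 CPM across 15 libraries was 0.287. An r above 0.5 was found for 139 pairs, 29.9%, beside 7.94% for members with all genes, and an r below -0.5 for 15 pairs, 3.23%, beside 7.24%. These are descriptions: the points share libraries, their composition and their depth. The set of all genes was not matched to the members in level. After subtraction of each diet's mean the share above 0.5 was 37% (12% for all genes), and without adequate replicate 1 it was 30.3% (7.75%), above the share for all genes in both cases. The count of negative pairs moved more: 26 pairs were below -0.5 within diets, 7 without adequate replicate 1, and 3 without supplemented replicate 5 and deficient replicate 3 as well.

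The closest pair was Calr and Pdia6 (r = 0.941), both with the stress response element shown above, followed by Sdf2l1 and Pdia6 (0.92) and Pdia4 and Pdia6 (0.909). Sdf2l1 and Pdia4 had a promoter entry without this element. Within roles the median r was 0.563 for lectin chaperones and isomerases, 0.491 for the translocon, 0.473 for chaperones, 0.212 for ER-associated degradation and 0.0554 for sensors and transcription factors. The last of these was 0.187 without adequate replicate 1 and 0.131 within diets. Syvn1, which has the same element, had a negative r with most chaperones and isomerases, down to -0.681 with Sdf2l1, and went with its partner Sel1l (0.717). In adequate replicate 1 Syvn1 and Sel1l were at their lowest and Sdf2l1 at its highest of all libraries. Neither r was computed without that library. Ern1 went with Atf6 (0.774) and Herpud1 with Xbp1 (0.71). The median r was 0.438 among the 8 tested genes with the element and 0.241 among the 17 tested genes with an entry and without it, a difference that was not tested. The groups also differed in role. Most genes with the element were chaperones, lectin chaperones or isomerases. Every translocon gene, sensor and transcription factor with an entry lacked it.

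**Figure D5:**
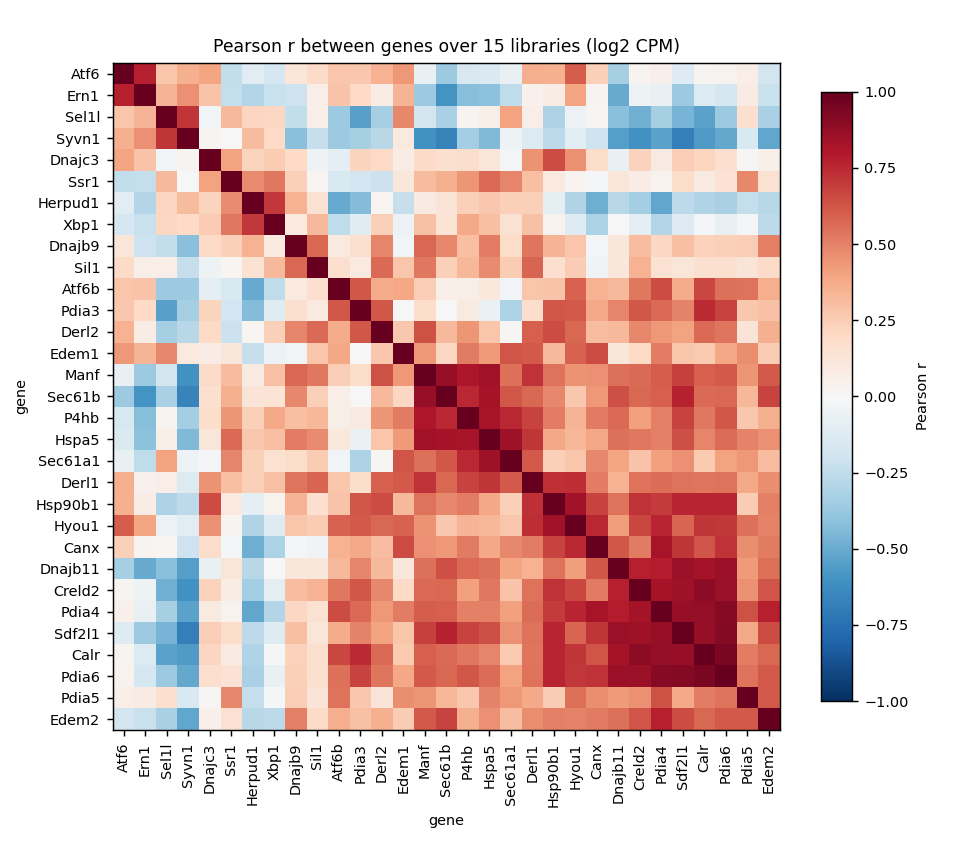
Pearson r of log2 CPM over 15 libraries for each pair of 31 genes, ordered by similarity; red is positive and blue negative. A block of chaperones and isomerases from Dnajb11 to Pdia6 is dark red, while Sel1l and Syvn1 are blue against it. Ern1 is blue against Dnajb11 and paler against the rest of the block, for example -0.0479 with Creld2.

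Hspa5 had an r above 0.5 with 12 other members, beside 15.5% of all genes. The highest were Sec61a1 (0.849), Manf (0.836), Sec61b (0.835) and P4hb (0.826). Hyou1 (0.335), Hsp90b1 (0.383) and Xbp1 (0.303) were lower, Pdia3 was at -0.0676, and Ern1 (-0.411) and Syvn1 (-0.44) were negative. Hsp90b1 and Hyou1 went together more closely (0.837) than either did with Hspa5.

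Relations of the 31 members to 11 lists of cell markers, 341 relations in all, were tested across the 15 libraries by permutation. Of these, 2 had an adjusted p under 0.05. Sec61a1 was lower where airway markers were higher (r = -0.837, permutation p = 6e-05, adjusted p = 0.0136; rho = -0.768, permutation p = 0.0011, adjusted p = 0.188). Without supplemented replicate 5 and deficient replicate 3, the libraries farthest from the median, r was -0.702 with an adjusted p of 0.704 over the 13 libraries left. P4hb was lower where plasma cell markers were higher (r = -0.859, permutation p = 8e-05, adjusted p = 0.0136; rho = -0.782, permutation p = 0.00106, adjusted p = 0.188), and without the same libraries r was -0.845 with an adjusted p of 0.188. The 8 plasma cell markers summed to 90.69 to 196.3 CPM per library, most of it from Sdc1, which had 82.86 to 170 CPM and is not limited to plasma cells. The level related to P4hb was not this sum but the mean log2 CPM of the 6 markers that passed the filter on low counts. In that mean, markers near the floor count as much as Sdc1. Igkc had 0 to 3.917 CPM, Prdm1 had 0.126 to 9.861 CPM, and Jchain stayed at or under 2.364 CPM. The plasma cell receptor Tnfrsf17, at 0 in every adequate and restricted library, did not pass the filter. For alveolar type 2 markers 22 of 31 members had a negative r (median -0.323), and for G2/M markers 7 of 31 did (median 0.419), with 0 relations passing in either list.

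The 6 further lists cover the rest of the pathway and its surroundings, and none of their genes passed the adjusted test in any comparison. Among 12 genes of the Perk arm, 3 were above 0 for deficient against adequate, 4 for restricted and 1 for supplemented, with medians of -0.31, -0.15 and -0.27. Ppp1r15a, which brings a phosphatase to eIF2α, had 51.72, 76.58 and 55.79 CPM in the adequate libraries and 38.2, 42.07 and 30.27 CPM in the restricted ones, without overlap, at -0.74 (SE 0.28, adjusted p = 0.449). Nupr1, a stress-induced nuclear protein, differed by -0.42 (SE 0.191, adjusted p = 0.506) for supplemented against adequate.

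The 18 other genes of ER-associated degradation had 8, 7 and 8 members above 0 for deficient, restricted and supplemented against adequate. Selenos, a selenoprotein of the exit channel, was at -0.58, -0.73 and -0.53 (adjusted p = 0.314, 0.434 and 0.487), and Ube2g2, a ubiquitin-conjugating enzyme, was at -0.50, -0.29 and -0.35. The 22 other folding enzymes had 6, 11 and 7 above 0. Serp1, a translocon-associated stress protein, was at -0.54, -0.72 and -0.45, and Ganab, the catalytic subunit of glucosidase II, was at 0.25, 0.49 and 0.33. Among 23 translocon and glycosylation genes, 6, 11 and 5 were above 0. Spcs1, of the signal peptidase, was at -0.60 (adjusted p = 0.202), -0.25 and -0.45, and Dad1, of the oligosaccharyltransferase, was at -0.38, 0.18 and -0.05.

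The 14 tested stress transducers had 8, 9 and 8 genes above 0. Nfya, a subunit of the factor that binds CCAAT, was at 0.63 (SE 0.251, adjusted p = 0.26), 0.54 and 0.53 for deficient, restricted and supplemented, and Creb3 was at -0.58, -0.68 and -0.42. Of 13 heat shock genes outside the ER, not all of them cytosolic, 11, 10 and 11 were above 0, with medians of 0.34, 0.25 and 0.23. Hsf1, the heat shock factor, had 34.46, 23.62 and 34.79 CPM in the adequate libraries and 49.48, 45.4 and 47.23 CPM in the restricted ones, without overlap, at 0.61 (SE 0.183, adjusted p = 0.368). Hsph1, a cytosolic Hsp110 chaperone, was at 1.22 (SE 0.46, adjusted p = 0.241), 1.02 and 1.17, with 29.92 CPM in adequate replicate 1 against 9.779 and 8.639 CPM in replicates 2 and 3.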

How the data were processed

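Expected counts and TPM per gene were deposited by the authors, 1 table per library. Per the submitters' processing notes, Bowtie2 2.2.9, RSEM 1.30, edgeR and build NCBIM37 were used; their roles are not given there. Per the labels' protocols, ribosomal RNA was removed and libraries were stranded; the counting setting for strand is not given in the sources used here, so genes that overlap others in the RefSeq gene table (Hspa5, Pdia3, Pdia6, Syvn1, Derl2 and 7 more) may share reads. From the deposited expected counts, rounded to whole numbers, edgeR 4.0.16 (R 4.3.3) was run with filterByExpr, TMM scaling and a mean per diet over all 15 libraries (11 residual degrees of freedom, biological coefficient of variation 0.461), with its quasi-likelihood test and Benjamini-Hochberg adjustment over 16001 genes at 0.05. Levels are CPM, correlations use log2 CPM with a prior count of 2, and levels between genes use the deposited TPM. DESeq2 1.42.0, limma 3.58.1, other scaling, no filter, a covariate, and fits without each library were alternatives. In data simulated at these depths, changes were planted in genes drawn at random from all those tested. Of these, 9% of 2-fold and 52% of 4-fold changes were recovered for deficient against adequate (18% and 55% for restricted, 27% and 66% for supplemented). Most 2-fold changes in such genes therefore escape a call, and recovery at the levels of the members was not simulated. Relations used 100000 permutations (20000 without 2 libraries), two-sided.

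The members and all lists were chosen with earlier results of these data known. Members called, or else the 3 with the smallest p in a comparison, are given by library for some or all of the diets. Supplemented libraries, where given for these members, are mostly a range and median. From each further list the 2 genes with the smallest p for any difference are named. Other members with values were chosen after their values were seen. Replicate numbers follow accession order. Gene coordinates in the build of the files were not used here, and coordinates shown are those of the RefSeq promoter table.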

Additional observations from a re-analysis of the deposited data

Results flagged for a closer look

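In the supplemented group of 6 libraries, 31 members were screened for a library far from the others, which chance flags in about 1 in 20 groups, and 2 were found. Pdia4 had 383.6 CPM in supplemented replicate 5, with the next library at 321 CPM and the lowest at 286.7 CPM. That library also carried the skeletal muscle markers. Derl1 had 270.5 CPM in supplemented replicate 1, with the next library at 201.8 CPM and the lowest at 181.3 CPM. Supplemented replicate 1 was the highest of its diet for 15 of 31 members.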

How the results depend on the processing

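The count of members called stayed at 0 in every comparison with other scaling, limma-voom, no filter, an alveolar type 2 covariate, removal of structural RNA genes, 2 groups alone, and each library left out (with 1 library left out, the smallest adjusted p of a member was 0.0799). DESeq2 called 1 member, Ern1, for deficient against adequate, supplemented against adequate and any difference (log2 0.98 with adjusted p 0.0118, log2 0.97 with 0.00609, and adjusted p 0.02296). The cause was not tested. The median of the members for deficient against adequate ranged from -0.06998 without deficient replicate 1 to 0.2747 without adequate replicate 1, and was 0.3733 without adequate replicate 1, supplemented replicate 5 and deficient replicate 3. Without the 2 libraries farthest from the median marker level, the relations called were 0 for airway and 0 for plasma cell markers. Sil1 for deficient against supplemented, 0.18 with all libraries, ranged from -0.02424 without deficient replicate 1 to 0.3068 without deficient replicate 3. The median r of member pairs was 0.366 within diets, 0.325 without adequate replicate 1 and 0.363 without the 3 libraries, alternatives chosen after seeing the data. Limits are 3 libraries in 3 of the 4 groups and a wide spread between them, so a call needs a large difference. No paired analysis was possible because the replicate numbers were assigned in accession order and carry no pairing.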

Other observations

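The genes of the whole table whose log2 CPM followed Hspa5 most closely over the 15 libraries, taken by rank of Pearson r after the values were seen, were Sf3b5 (0.925), Tmed2 (0.917), Stub1 (0.914), Phgdh (0.907), Psat1 (0.905) and Pck2 (0.901). The closest member of the list, Sec61a1 at 0.849, came in at rank 36. The list of the 15 closest genes also held Srprb (0.899), the β subunit of the signal recognition particle receptor, and Kdelr2 (0.883), a receptor that returns escaped ER proteins. Phgdh and Psat1 code for enzymes of serine synthesis. These values are a description of 15 libraries and no test was made of them.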
